A study of Mus musculus with 9 samples.

Results

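The Ifitm genes encode the interferon-induced transmembrane proteins, and RNA-seq of mouse colonic mucosa was used here to describe all 7 members listed in the deposited table: Ifitm1, Ifitm2, Ifitm3, Ifitm5, Ifitm6, Ifitm7 and Ifitm10. Members were chosen by gene symbol alone, with no measured value in the rule, and they are 7 of the 54146 genes in the table. Genes were tested where 4 or more mice reached a normalized count of 10, which kept 14410 genes, and 2 of the 7 members, Ifitm2 and Ifitm3, were among them. A normalized count is the number of reads on a gene divided by a size factor of the mouse.

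The study asked what an engineered epimutation of p16 adds to a mutant Apc in the colon. Of the C57BL/6J mice, 5 were ApcMin/+, heterozygous for a truncating Apc allele, and 4 were ApcMin/+; p16cis/cis, which carry in addition a DNA element knocked in at p16 on both alleles that draws DNA methylation to its promoter. All 9 mice were 15 wk old and all carried ApcMin/+, so neither a wild-type mouse nor a mouse with the p16 element alone is part of the comparison. The ApcMin/+ group held 2 females (replicates 1 and 5) and 3 males (replicates 2, 3 and 4), and the ApcMin/+; p16cis/cis group held 1 male (replicate 1) and 3 females (replicates 2, 3 and 4). The labels name the tissue colonic mucosa, and the methods of the study name colonic crypts as the source of the RNA. Each mouse gave 1 library, with 13523500 to 17885918 reads on genes.

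IFITM proteins are small membrane proteins that share a CD225 domain. IFITM3 sits mainly in endosomes and lysosomes, where it hinders the fusion of entering enveloped viruses, whereas IFITM1 sits largely at the cell surface and IFITM2 resembles IFITM3. Types I and II interferon induce some of these genes, Ifitm2 and Ifitm3 among them, through response elements near their start sites. Ifitm3 is also known as a gene raised in intestinal tumors with active Wnt signaling.

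Libraries differed in ways other than the members' levels. Cdkn2a, which encodes p16, had 0 reads in all 9 mice, so its level could not serve as a check of the genotype labels. Mitochondrial genes took 8.74% to 15.6% of the reads in ApcMin/+ mice and 19.3% to 29.8% in ApcMin/+; p16cis/cis mice, without overlap, and this difference cannot be told apart from genotype. The 10 epithelial markers, among them Epcam, Krt8 and Muc2, summed to 378053 to 639446 normalized counts, and all 10 were tested. ApcMin/+ replicate 4 stood apart. Its T and NK cell markers summed to 71.2 against 347 to 1065 in the other 8 mice, its B and plasma cell markers to 144 against 236 to 2385, and its epithelial markers to 639446 against 378053 to 433692.

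In the family, 5 members lie together on chromosome 7 of GRCm38, within 69.0 kb from 140948958 to 141017924, in the order Ifitm5, Ifitm2, Ifitm1, Ifitm3 and Ifitm6. Ifitm2 (ENSMUSG00000060591.9, chr7:140954837-140955987, minus strand) and Ifitm3 (ENSMUSG00000025492.6, chr7:141009586-141010770, minus strand) each have 1 annotated transcript of 2 exons. Ifitm10 lies farther along the chromosome at chr7:142325837-142373753, and Ifitm7 lies at chr16:13981699-13986888.

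The bases around the start sites of Ifitm3 and Ifitm2, the 2 tested members and both interferon targets, are shown as a description. Whether they bear on the different genotype results of the pair was not tested. Matches to the core of the interferon-stimulated response element, searched as 2 copies of GAAA with any 2 bases between them, are in capitals, and the runs are 30 bases on the strand of the gene, read from RefSeq promoter windows of GRCm38.p6. The Ifitm3 run is chr7:141010714-141010743, bases 1 to 30 after the RefSeq start base, and the Ifitm2 run is chr7:140955979-140956008, bases -47 to -18 before it.
Ifitm3: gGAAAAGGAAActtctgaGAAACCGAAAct
Ifitm2: gGAAAAGGAAAttgctagagaaagggcggg
Ifitm3 had 2 matches, GAAAAGGAAA and GAAACCGAAA, where Ifitm2 had 1, and the first Ifitm3 match and the Ifitm2 match are the same 10 letters. Between them in Ifitm3 lies TTCTGAGAA, a match to TTCNNNGAA, the core of the gamma-activated site, which shares its last letters with the second element. Its 9 letters read on either strand are counted as 1 match. A further 120 bases of each promoter, upstream of the starts annotated by both RefSeq and GENCODE, show where the elements lie. The Ifitm3 stretch is chr7:141010771-141010890 and the Ifitm2 stretch is chr7:140955988-140956107, both on the minus strand.
Ifitm3: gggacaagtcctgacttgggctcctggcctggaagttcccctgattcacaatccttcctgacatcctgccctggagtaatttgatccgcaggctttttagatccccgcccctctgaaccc
Ifitm2: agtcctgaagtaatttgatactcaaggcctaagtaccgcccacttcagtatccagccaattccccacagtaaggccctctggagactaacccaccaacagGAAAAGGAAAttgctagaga
The Ifitm2 element lies in this upstream stretch, while the Ifitm3 stretch holds no match, since both of its elements lie downstream of the annotated starts. Over windows of 250 bases before and 50 after each start, searched on both strands, the response element core occurred in 3.44% of 32851 windows. By gene, it occurred in 3.99% of 27025 genes and in 19 of the 38 interferon-stimulated genes that had a window. TTCNNNGAA occurred in 8.30% of windows, in 9.55% of the 27025 genes and in 11 of those 38 genes. Ifitm6 had 1 match to TTCNNNGAA, and the windows of Ifitm1, Ifitm5, Ifitm7 and Ifitm10 held neither core.

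Of the 13935 reads on the family over the 9 mice, 8164 (58.6%) were from Ifitm2 and 5662 (40.6%) from Ifitm3. Ifitm2 ranked at percentile 75.8 and Ifitm3 at percentile 68.3 of the 14410 genes tested by mean normalized count. Ifitm1, the third in order, had 57 reads in all. Per kilobase of exon, the normalized count in ApcMin/+ mice was 1610 ± 233 for Ifitm2, 739 ± 235 for Ifitm3 and 7.20 ± 1.87 for Ifitm1 (SD, n = 5). In ApcMin/+; p16cis/cis mice the level per kilobase was 1814 ± 562 for Ifitm2 and 1809 ± 1134 for Ifitm3 (SD, n = 4), so the levels of the pair lay within their spread there. Fewer cells of a type and less RNA per cell cannot be told apart in these bulk samples.

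**Figure D1:**
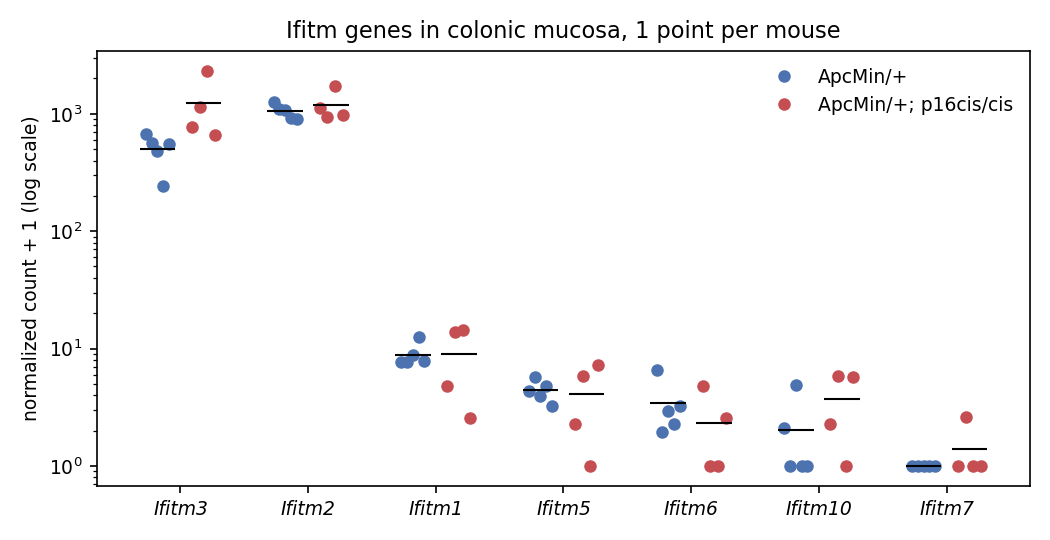
Normalized counts of the 7 Ifitm genes, plotted as the count plus 1 on a log axis, with 1 point per mouse in replicate order, ApcMin/+ in blue and ApcMin/+; p16cis/cis in red, and a bar at each group's mean plus 1. Ifitm3 and Ifitm2 stand far above the other 5 genes, and Ifitm3 reached 2337 in 1 ApcMin/+; p16cis/cis mouse.

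Ifitm3 was higher in the ApcMin/+; p16cis/cis mice. Its normalized count was 666, 562, 482, 242 and 555 in ApcMin/+ replicates 1 to 5, and 774, 1142, 2337 and 653 in ApcMin/+; p16cis/cis replicates 1 to 4. The groups overlapped at 1 point, because ApcMin/+; p16cis/cis replicate 4 lay just under ApcMin/+ replicate 1, and the widest excursions were the low ApcMin/+ replicate 4 and the high ApcMin/+; p16cis/cis replicate 3. The means were 501 ± 159 (SD, n = 5) and 1227 ± 769 (SD, n = 4). On the log2(normalized count + 1) scale the difference was 1.18 (SE 0.36), a 2.27-fold rise with a 95% interval of 1.32 to 3.90, and its adjusted p was 0.0428 in limma with Benjamini-Hochberg adjustment over all genes tested. In the same fit 8.14% of the genes tested passed at an adjusted p under 0.05 on the higher side, and 1.83% did so with a fold over 2, as Ifitm3 did; 16.9% passed in either direction. Ifitm3 stood at rank 2193 by p, and 269 genes, itself included, had a log2 fold change at least as large. A two-sided exact permutation test of Ifitm3 alone over all splits of the mice gave p = 0.0159, where the smallest possible was 0.00794. The count tests on recovered reads gave an Ifitm3 difference of 1.28 in edgeR (adjusted p = 0.0305) and 1.29 in DESeq2 (adjusted p = 0.0315).

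The Ifitm3 call did not hold for every set of mice or with sex in the model. Among females the Ifitm3 normalized counts were 666 and 555 in ApcMin/+ mice and 1142, 2337 and 653 in ApcMin/+; p16cis/cis mice, and among males they were 562, 482 and 242 against a single 774. With each sex centered on its own mean, the log2 difference of the group means was 0.85. Exact permutation within sex over 40 arrangements gave p = 0.075, the smallest possible being 0.025. Centering shrinks the difference, because the sexes were split unequally between the genotypes. In females only it was 0.98. With sex as a term in limma it was 0.97 (adjusted p = 0.103), and with the mitochondrial share as a term it was 0.83 (adjusted p = 0.883). The limma call was also lost without ApcMin/+ replicate 2 (1.24, adjusted p = 0.0656), replicate 3 (1.19, adjusted p = 0.0808) or replicate 5 (1.24, adjusted p = 0.0586), and without ApcMin/+; p16cis/cis replicate 2 (1.15, adjusted p = 0.101) or replicate 3 (0.81, adjusted p = 0.0888). The sex by genotype term for Ifitm3 was -0.04 (SE 0.77, adjusted p = 0.989 in limma), with 1 male in the ApcMin/+; p16cis/cis group.

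Ifitm2 did not pass the test. Its normalized count was 1270, 1102, 1087, 922 and 893 in ApcMin/+ replicates 1 to 5, and 1116, 936, 1728 and 971 in ApcMin/+; p16cis/cis replicates 1 to 4. All but 1 of the latter fell inside the ApcMin/+ range, and the exception was replicate 3, the mouse with the highest Ifitm3 as well. Group means for Ifitm2 were 1055 ± 153 (SD, n = 5) and 1188 ± 368 (SD, n = 4), and the log2 difference was 0.14 (SE 0.18, adjusted p = 0.626 in limma with Benjamini-Hochberg adjustment). The 95% interval of the Ifitm2 fold ran from 0.843 to 1.44. By exact permutation the Ifitm2 difference had p = 0.563. With each sex centered on its own mean it was 0.11 (exact permutation within sex, p = 0.675). Without ApcMin/+; p16cis/cis replicate 3 the log2 difference was -0.06.

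Whether Ifitm3 and Ifitm2 differed unequally between the genotypes was tested by their ratio in each mouse, which does not depend on how a library was scaled. The ratio of Ifitm3 reads to Ifitm2 reads was 0.525, 0.510, 0.443, 0.262 and 0.621 in ApcMin/+ replicates 1 to 5. In ApcMin/+; p16cis/cis replicates 1 to 4 it was 0.693, 1.22, 1.35 and 0.673, so the groups did not overlap, and the only ratios above 1 were in replicates 2 and 3. Means were 0.472 ± 0.134 (SD, n = 5) and 0.984 ± 0.352 (SD, n = 4). The ratio was 2.06 times higher in ApcMin/+; p16cis/cis mice, a log2 difference of 1.04 (SE 0.34), with p = 0.00794 by a two-sided exact permutation test, the smallest that this design can give. Only 1 pair of members had enough reads, so no further pairs were compared. Against the same denominator, 0.77% of the other genes tested had a ratio to Ifitm2 that was higher without overlap. With each sex centered on its own mean, the log2 difference of the ratio was 0.74, with p = 0.05 by exact permutation within sex. The centering shrinks this value, as it does for Ifitm3. Leaving out each mouse in turn gave differences between 0.85 and 1.20 and exact p-values between 0.0179 and 0.0357. Because the groups did not overlap, no reduced set could overlap either, so small p-values were fixed in advance.

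**Figure D2:**
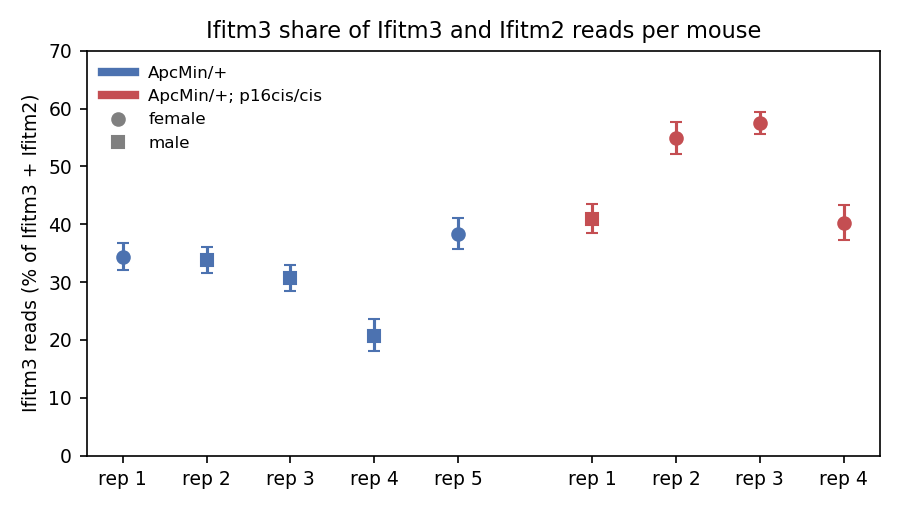
Ifitm3 reads as a percentage of Ifitm3 and Ifitm2 reads together in each of the 9 mice, ApcMin/+ in blue and ApcMin/+; p16cis/cis in red, circles for females and squares for males, with 95% exact Clopper-Pearson intervals. The 5 ApcMin/+ mice lie between 20.8% and 38.3% and the 4 ApcMin/+; p16cis/cis mice between 40.2% and 57.5%.

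The gap between the groups was narrow at its edge relative to counting error. Ifitm3 made up 38.3% of the reads of the pair in ApcMin/+ replicate 5, with an exact Clopper-Pearson 95% interval of 35.6% to 41.1%, and 40.2% in ApcMin/+; p16cis/cis replicate 4, with an interval of 37.2% to 43.3%. These Ifitm3 shares rest on 489 and 417 reads, and their intervals overlap. ApcMin/+; p16cis/cis replicate 1 was at 40.9%, and its interval of 38.4% to 43.5% also overlaps that of ApcMin/+ replicate 5. ApcMin/+; p16cis/cis replicates 2 and 3 were at 55.0% and 57.5%, outside the intervals of every ApcMin/+ mouse. Intervals cover counting error only. No stretch of 50 or more identical bases was shared between the Ifitm2 or Ifitm3 transcripts and the transcripts of any other gene, so reads of that length without mismatches would separate the pair.

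The other 5 members were close to the floor. A floor of 3 reads corresponded to a normalized count of 2.85 to 4.79, or 1.68e-05% to 2.22e-05% of a library. Ifitm1 (ENSMUSG00000025491.14, chr7:140967221-140969825, plus strand), whose protein acts at the cell surface, had 6, 7, 8, 9 and 6 reads in ApcMin/+ mice and 3, 8, 9 and 1 in ApcMin/+; p16cis/cis mice. Its normalized counts, 7.88 ± 2.04 (SD, n = 5) and 7.91 ± 6.12 (SD, n = 4), overlapped fully, and the log2 difference of -0.31 had p = 0.675 by exact permutation. A difference in Ifitm1 was not detectable at this depth.

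Ifitm5, known as Bril for its role in osteoblasts and bone mineralization, had 24 reads over 8 of the 9 mice and at most 5 in any mouse. Of the 5 osteoblast markers, 4 (Bglap, Ibsp, Sp7 and Dmp1) were at or under 3 reads in every mouse. Ifitm6, described in macrophages, had 15 reads, of which 5 were in ApcMin/+ replicate 1. Ifitm10, the most divergent member, had 12 reads, with 4 in ApcMin/+ replicate 3 and 3 each in ApcMin/+; p16cis/cis replicates 2 and 4. A stretch of 217 bases of Ifitm10 is identical in Gm49369, so its reads could be divided between these genes. Ifitm7 had 1 read in all 9 mice, in ApcMin/+; p16cis/cis replicate 2, and 226 bases of 1 of its transcripts are identical in 2900011O08Rik. No fold is given for Ifitm5, Ifitm6, Ifitm7 or Ifitm10, since most mice were at or under the floor.

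Genes that interferon induces were next set beside the family. All 54 genes of the interferon-stimulated list were tested, 5 rose and 0 fell, which is 9.26% against the 8.14% of all genes that passed on the higher side. The median log2 fold change of the list was 0.55, against -0.00 over all genes tested, and 44 of its 54 genes had the higher mean in ApcMin/+; p16cis/cis mice, as did 7149 of the 14410 genes tested. Isg20, an exonuclease that degrades viral RNA, rose from 509 ± 53.4 to 1131 ± 220 normalized counts (SD, n = 5 and n = 4), a log2 difference of 1.14 (adjusted p = 0.00155 in limma with Benjamini-Hochberg adjustment). Batf2, an interferon-induced transcription factor, rose by 1.02 (adjusted p = 0.0049), and Psmb8, a subunit of the immunoproteasome, by 1.10 (adjusted p = 0.0317). Mx1, an antiviral GTPase, rose by 1.65 (adjusted p = 0.0458) and Zbp1, a sensor of Z-form nucleic acid, by 1.30 (adjusted p = 0.0485). In the list 6 genes had a larger log2 fold change than Ifitm3, whose value lay among those of the genes that passed.

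Other interferon genes did not pass in limma. The log2 difference was 1.00 for Bst2, or tetherin (adjusted p = 0.0529), 0.69 for Irf7, a regulator of type I interferon genes (adjusted p = 0.141), and 0.71 for Nos2, the inducible nitric oxide synthase (adjusted p = 0.262). Irf1, which interferon gamma induces, was at 1938 ± 399 and 1910 ± 271 normalized counts (SD, n = 5 and n = 4), a difference of -0.00 (adjusted p = 0.995 in limma). The count of 5 was 8 without ApcMin/+ replicate 4 and 2 without ApcMin/+; p16cis/cis replicate 3, and it was 2 with sex as a term. The number of all genes that passed in either direction moved as well. It was 2434 in the reported test and 3488, 2195 and 1437 in these 3 fits.

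**Figure D3:**
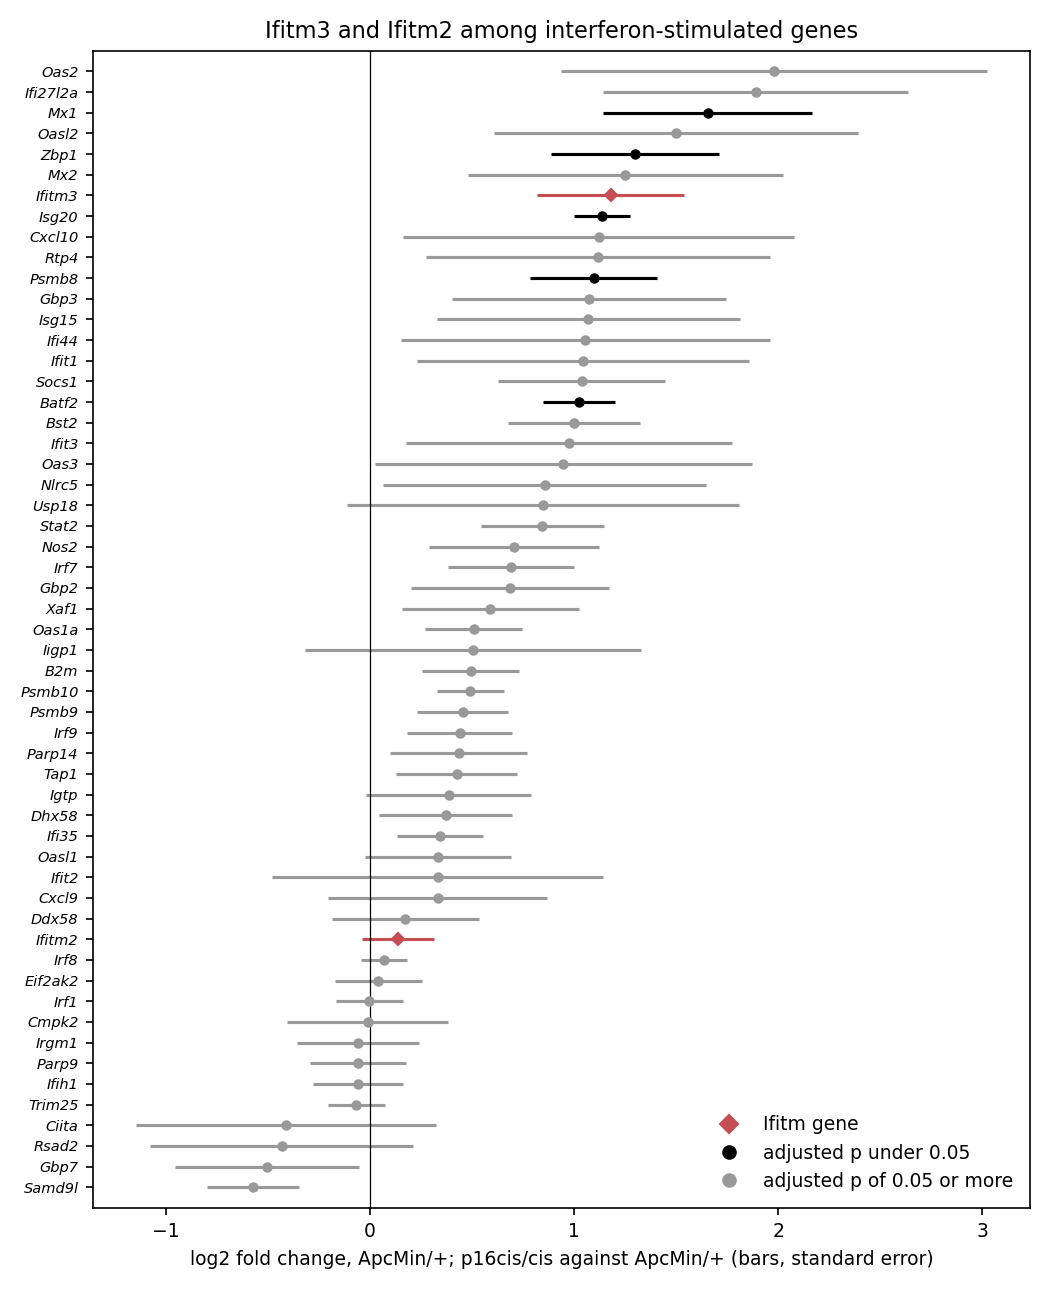
Log2 fold changes of Ifitm3 and Ifitm2 (red diamonds) and of 53 interferon-stimulated genes (circles, black where the adjusted p was under 0.05) in ApcMin/+; p16cis/cis against ApcMin/+ mice, with bars of 1 standard error, ordered by size. Ifitm3 at 1.18 has 6 genes above it, and Ifitm2 at 0.14 lies among the genes near 0.

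The receptors and kinases through which interferon signals gave 0 genes that passed of 9 in limma, DESeq2 or edgeR, with 1 gene at an unadjusted p under 0.05 by each tool. Over all genes tested, 16.9% passed in limma in either direction. The median log2 fold change of these 9 genes was -0.05. Ifngr1 and Ifngr2, the chains of the interferon gamma receptor, differed by -0.10 and -0.05, and Ifnar1, of the type I receptor, by 0.01. The other receptor chains, Ifnar2, Ifnlr1 and Il10rb, differed by 0.18, 0.22 and -0.08. Of the kinases, Jak1 differed by -0.28 (adjusted p = 0.0748 in limma), Jak2 by -0.17 (adjusted p = 0.320) and Tyk2 by 0.13 (adjusted p = 0.377). Ifng itself, the gene of the type II ligand, was below the filter, with at most 6.38 normalized counts in any mouse.

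Ifitm3 was also followed mouse by mouse beside the interferon-stimulated genes. The mean deviation of the 54 genes from their own means over the 9 mice was -0.32, 0.25, 0.26, -1.81 and 0.26 on the log2 scale in ApcMin/+ replicates 1 to 5, and -0.02, 0.53, 1.23 and -0.37 in ApcMin/+; p16cis/cis replicates 1 to 4. ApcMin/+ replicate 4 was lowest and ApcMin/+; p16cis/cis replicate 3 highest, as for Ifitm3. The groups overlapped, at -0.27 ± 0.89 (SD, n = 5) and 0.34 ± 0.70 (SD, n = 4), and the difference of 0.61 had p = 0.357 by a two-sided exact permutation test. Over the 9 mice, Pearson's r between this deviation and Ifitm3 was 0.85 (permutation p = 0.0122, 0.0183 after Benjamini-Hochberg adjustment over 3 relations), and Spearman's rho was 0.50 (permutation p = 0.178, adjusted 0.266). Without these 2 mice r was 0.20, so the relation rests on them. For the ratio of Ifitm3 to Ifitm2, r was 0.83 (permutation p = 0.00805, adjusted 0.0183), rho was 0.58 (permutation p = 0.108, adjusted 0.266), and r without the same 2 mice was 0.35. For Ifitm2, r was 0.53 (permutation p = 0.151, which the adjustment left at 0.151), rho was 0.15 (permutation p = 0.708, likewise 0.708 after adjustment), and r without the 2 mice was -0.47. With each genotype's mean taken out, r was 0.87 for Ifitm3, 0.49 for Ifitm2 and 0.90 for the ratio. These values still include the same 2 mice, each the extreme of its own genotype, so they do not show a relation apart from them.

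**Figure D4:**
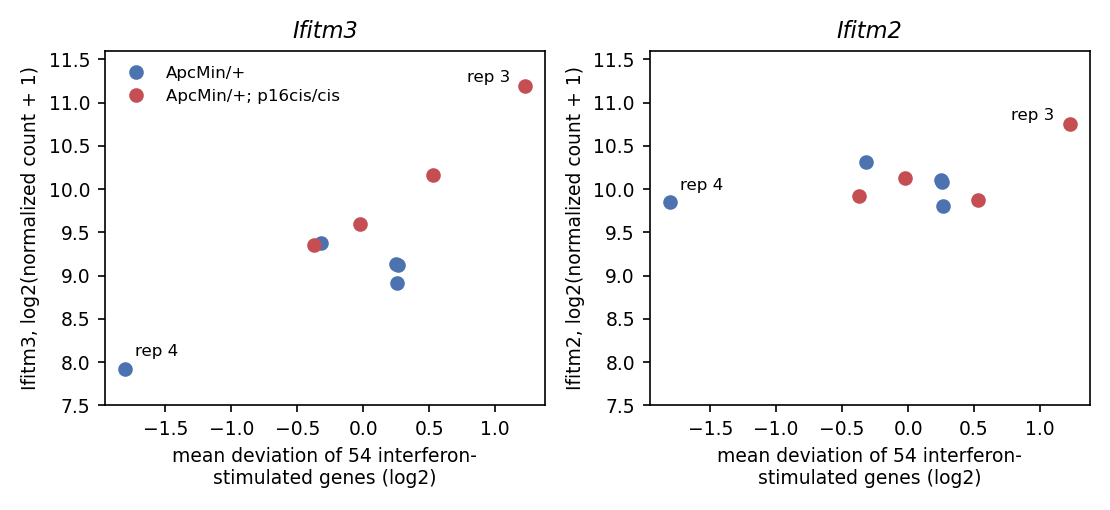
Ifitm3 (left) and Ifitm2 (right), each as log2(normalized count + 1), against the mean log2 deviation of 54 interferon-stimulated genes, with 1 point per mouse, ApcMin/+ in blue and ApcMin/+; p16cis/cis in red. The labeled ApcMin/+ replicate 4 (-1.81) and ApcMin/+; p16cis/cis replicate 3 (1.23) set the slope for Ifitm3, for which r was 0.85 with them and 0.20 without them.

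The same 2 mice were lowest and highest in the sum of myeloid markers. Myeloid markers summed to 1552 normalized counts in ApcMin/+ replicate 4 and 6138 in ApcMin/+; p16cis/cis replicate 3, against 2163 to 3807 in the other 7 mice. Cd74, which epithelium also expresses under interferon gamma, ranged from 455 to 4501 over all mice. The 4501 was in an ApcMin/+; p16cis/cis mouse, and only replicate 3 had a myeloid sum that large. Most of its sum of 6138 was therefore Cd74. For T and NK cell markers that mouse was at 421, and for B and plasma cell markers at 353. Lyz2, a lysozyme of macrophages, fell by 1.56 on the log2 scale in ApcMin/+; p16cis/cis mice (adjusted p = 0.00745 in limma). Over the groups the myeloid sum ranged from 1552 to 3807 and from 2163 to 6138, with 1 of 8 markers tested passing, on the lower side, and 4 higher and 4 lower by log2 difference. Among those that did not pass, the log2 difference was 0.85 for Cd68 (adjusted p = 0.0903 in limma), 0.67 for Fcer1g (adjusted p = 0.273) and 0.38 for Cd14 (adjusted p = 0.129). It was 0.28 for Cd74 (adjusted p = 0.772 in limma). On the lower side it was -1.04 for Csf1r (adjusted p = 0.104 in limma), -0.43 for Tyrobp (adjusted p = 0.556) and -0.02 for Itgam (adjusted p = 0.968). The T and NK cell sum ranged from 71.2 to 1065 in ApcMin/+ mice and from 347 to 473 in ApcMin/+; p16cis/cis mice, with 0 of 7 tested markers passing in limma. Neutrophil markers ranged from 463 to 1044 and from 362 to 1659, mostly from Ly6g, and Mpo and Elane were at or under 3 reads in every mouse. B and plasma cell markers ranged from 144 to 2385 and from 236 to 353. All 6 had a lower mean log2 level in ApcMin/+; p16cis/cis mice, with a median difference of -1.84, and 1 of them passed, Jchain, the joining chain of secreted antibody (-2.65, adjusted p = 0.0175 in limma). Stromal and vessel markers ranged from 255 to 857 and from 194 to 356. Of the 8 tested 7 were lower, with a median difference of -1.18, and 1 passed, the collagen gene Col3a1 (-2.92, adjusted p = 0.0414 in limma). For comparison with these marker counts, 16.9% of all genes tested passed in limma in either direction. The part of these cells in the Ifitm3 difference was not tested.

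The genes most like each tested member over the 9 mice were ranked by Pearson's r of log2(normalized count + 1), as a description. For Ifitm3 they were AC132837.2 (0.989), Psme3 (0.988), Vkorc1 (0.963), Mettl1 (0.960) and B2m (0.950). Psme3 encodes a proteasome activator, Vkorc1 the vitamin K epoxide reductase, Mettl1 an RNA methyltransferase and B2m the light chain of MHC class I. None of these 5 passed the genotype test in limma, and the nearest was Mettl1, with a log2 difference of 0.49 (adjusted p = 0.0511). For Ifitm2 the most alike were Kcnk1 (0.970), a potassium channel gene, Prpf19 (0.910), a splicing factor gene, and Abcg1 (0.909), a sterol transporter gene. Ifitm2 and Ifitm3 had an r of 0.69 with each other. Over the 54 interferon-stimulated genes the median r was 0.78 with Ifitm3 and 0.48 with Ifitm2, against -0.00 and 0.02 over all genes tested, and 20 of the 54 had an r over 0.8 with Ifitm3, as did 1.70% of all genes tested. These values rested on the same 2 mice: without ApcMin/+ replicate 4 and ApcMin/+; p16cis/cis replicate 3 the median was 0.15 with Ifitm3 and -0.35 with Ifitm2, and 1 of the 54 had an r over 0.8 with Ifitm3, against 3.51% of all genes tested. The r between Ifitm2 and Ifitm3 was then -0.20. For the 5 genes most like Ifitm3 it ranged from 0.770 for B2m to 0.971 for AC132837.2.

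Genes that act on IFITM proteins were described from a list of 10, all of which were tested, with 1 higher and 2 lower. Vcp, an ATPase that extracts ubiquitinated proteins from membranes, was at 776 ± 101 and 1197 ± 270 normalized counts (SD, n = 5 and n = 4) and rose by 0.61 on the log2 scale (adjusted p = 0.0224 in limma with Benjamini-Hochberg adjustment). Zmpste24, a metalloprotease that works with IFITM proteins against viral entry, fell from 1085 ± 55.3 to 785 ± 103, a difference of -0.47 (adjusted p = 0.0133). Vapa, an endoplasmic reticulum protein that IFITM3 binds, fell by 0.35 (adjusted p = 0.0435). The 3 that passed are 30% of the list against 16.9% of all genes tested, and the list's median was -0.05. Of the 6 relatives of the family with a CD225 domain that are in the table, 2 were tested and 0 passed in limma, DESeq2 or edgeR, with 1 at an unadjusted p under 0.05 by each tool; their median was 0.27.

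Since Ifitm3 is known as a gene raised with Wnt signaling, 18 Wnt target and crypt base genes were counted. In limma 3 rose and 1 fell, 22.2% against 16.9% of all genes tested, and the median log2 fold change was 0.09. Those that rose were Ephb3 by 0.57 (adjusted p = 0.032 in limma) and Ephb2 by 0.35 (adjusted p = 0.0432), receptors that position cells along the crypt, and Myc by 0.47 (adjusted p = 0.0259). Prom1, a marker of crypt base cells, fell by 0.94 (adjusted p = 0.00532). The epithelial marker Slc26a3, an anion exchanger of surface colonocytes, fell by 1.23 (adjusted p = 0.00848), the only 1 of the 10 epithelial markers to pass.

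The genes around the chromosome 7 cluster were examined last. Of the 10 nearest tested protein-coding genes, 5 on each side, 1 passed in limma and rose. Over all genes tested, 8.14% passed on the higher side and 16.9% in either direction. The log2 fold changes of the 10 ran from -0.20 to 0.34 with a median of 0.06, all below the 1.18 of Ifitm3. Only 269 of the 14410 genes tested, Ifitm3 included, reached that value. The neighbor that passed was Pgghg, listed in the table as Athl1, a glycosidase gene 1.29 kb from the cluster on the Ifitm5 side. It was at 780 ± 18.4 and 987 ± 93.6 normalized counts (SD, n = 5 and n = 4), a difference of 0.34 (SE 0.09, adjusted p = 0.0319 in limma). Around Ifitm10 0 of 10 neighbors passed, with 0 at an unadjusted p under 0.05, by limma, DESeq2 and edgeR, and their log2 fold changes lay between -0.20 and 0.27. Around Ifitm7 0 of 10 passed by the same tools, with 1 at an unadjusted p under 0.05 in limma and in DESeq2 and 2 in edgeR.

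**Figure D5:**
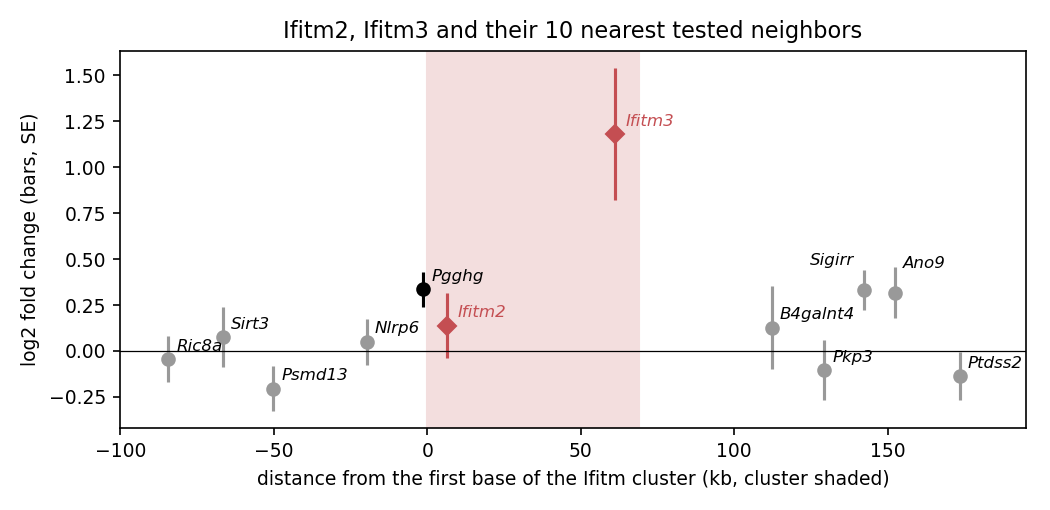
Log2 fold changes, with bars of 1 standard error, of Ifitm2 and Ifitm3 (red diamonds) and their 10 nearest tested neighbors (black where the adjusted p was under 0.05, grey otherwise) by distance in kb from the start of the 69.0 kb Ifitm cluster, which is shaded. Ifitm3 stands at 1.18, while the neighbors lie between -0.20 and 0.34.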

How the data were processed

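Total RNA of colonic mucosa was sequenced in 9 mice. Per the labels and the study's methods, libraries depleted of rRNA and enriched by oligo dT were run on a BGISEQ-500 instrument, reads were aligned with BOWTIE2, genes were quantified with RSEM and genotypes were compared with DESeq2; tool versions, read length and genome build of the RNA-seq are not given in the sources used here. The deposited table holds a signal value per gene and mouse, which is a gene count that the authors divided by a size factor. Dividing each column by the value of 1 read gave whole reads for 100% of values within 0.01 reads.

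Genotypes were compared with limma 3.58.1 (R 4.3.3) fitted to log2(normalized count + 1) with a variance trend, with genotype as the only term and Benjamini-Hochberg adjustment over the 14410 genes with at least 10 in at least 4 mice. Passed means an adjusted p under 0.05. The edgeR 4.0.16 and DESeq2 1.42.0 tests on recovered reads, other scalings, pseudocounts, filters and terms, and leaving out each mouse were alternatives. Single values were compared by two-sided exact permutation. Pearson and Spearman permutation p-values are two-sided. Gene positions and exon lengths come from GENCODE M21, in which 54079 of 54146 identifiers were found, and promoters from RefSeq. The 7 members and the gene lists were chosen with earlier results of these data known. Genes named with a test from the lists are those that passed plus Bst2, Irf1, Irf7 and Nos2, while 1 further gene is not reported here; defining cell type markers are named without regard to the test, and B2m by its likeness to Ifitm3. Cd14, Cd68, Cd74, Csf1r, Fcer1g, Itgam, Tyrobp, Ifng and the interferon receptors and kinases were named after their values were seen. The omission of 2 mice together from the correlations was also chosen then. Shared replicate numbers name different mice and were not used as pairs.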

Additional observations from a re-analysis of the deposited data

Results flagged for a closer look

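Within-group outliers were looked for by Dixon's criterion in 17 groups of values, of which chance alone would mark about 0.85, and 5 were marked. Of these, 4 were members near the floor, where values move in whole reads and the expected 0.85 need not hold. Ifitm1 was highest at 11.4 normalized counts in ApcMin/+ replicate 4, against 6.66 to 7.80 in the other 4 mice of that genotype. Ifitm6 was at 5.58 in ApcMin/+ replicate 1, against 0.951 to 2.27. Ifitm10 was at 3.90 in ApcMin/+ replicate 3, against 0 to 1.12. Ifitm7 was at 1.60, a single read, in ApcMin/+; p16cis/cis replicate 2, and at 0 in the other 3 mice. The fifth was the mean deviation of the interferon-stimulated genes, which was -1.81 in ApcMin/+ replicate 4 against -0.32 to 0.26 in the others. That mouse also had the lowest Ifitm3 value, which was not marked.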

How the results depend on the processing

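Ifitm3 was higher in ApcMin/+; p16cis/cis mice under each of the 12 alternative settings run beside leaving out a mouse, with log2 differences of 0.83 to 1.29, and passed in 9 of them. It did not pass with sex as a term (0.97, adjusted p = 0.103), with the mitochondrial share as a term (0.83, adjusted p = 0.883) or in females only (0.98, adjusted p = 0.175, limma). With each sex centered on its own mean, which shrinks the difference, the single-gene value was 0.85 (exact permutation within sex, p = 0.075). With the mitochondrial share as a term 0 genes of 14410 passed in limma, and 798 had an unadjusted p under 0.05. Leaving out each mouse gave 0.81 to 1.42 for Ifitm3 and passed in 4 of 9 fits, -0.06 to 0.24 for Ifitm2, -0.66 to 0.18 for Ifitm1 and 0.85 to 1.20 for the log2 ratio of Ifitm3 to Ifitm2. Signs turned for Ifitm2 without ApcMin/+; p16cis/cis replicate 3 (-0.0576) and for Ifitm1 without ApcMin/+; p16cis/cis replicate 4 (0.18). With each sex centered in the same way, the log2 difference of the ratio was 0.74 (exact permutation within sex, p = 0.05). Interferon-stimulated genes that rose numbered 5 in the reported test, 6 in DESeq2, 2 with sex as a term and 2 to 8 when 1 mouse was left out. The cause of these shifts was not tested, and the reduced fits also hold fewer mice. Genes that passed overall numbered 2434 in the reported test, 3251 in DESeq2, 1437 with sex as a term, 898 in females only and 1183 to 3488 when 1 mouse was left out. With a replicate block Ifitm3 differed by 1.24 (adjusted p = 0.0232) and Ifitm2 by 0.08 (adjusted p = 0.758). In that fit 24 interferon-stimulated genes rose, and 2074 genes passed overall. Same-numbered mice had a mean correlation of 0.02 in their deviations from the group means, and 2 of 4 correlated best with their own number, so the block has no basis in the design. In an alternative chosen after seeing the data, without ApcMin/+ replicate 4 and ApcMin/+; p16cis/cis replicate 3, the median r of the interferon-stimulated genes went from 0.78 to 0.147 with Ifitm3 and from 0.48 to -0.354 with Ifitm2, and the r of Ifitm2 with Ifitm3 from 0.69 to -0.198. Depth limits Ifitm1, Ifitm5, Ifitm6, Ifitm7 and Ifitm10, which had 1 to 57 reads over all mice.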
